A study of Mus musculus with 24 samples.

Results

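The data are the levels of 6 genes of secretory and mucus-lining epithelium in mouse mammary tumors: Fcgbp, Pigr and the mucin genes Muc1, Muc4, Muc15 and Muc20. They were taken by gene name from the non-control probes of an Agilent array, which gave 10 probes of 39429 and 6 genes of 30122. Differences between early and late tumors in this series, above all the low Fcgbp level of early tumors, led to the choice of this gene group. Differences between early and late tumors are therefore given for these genes as a description, without a test.

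Each of 24 mammary tumors was hybridized to its own 2-color array beside a reference RNA pooled from mouse cell lines. All mice were female BALB/c mice given the carcinogen 7,12-dimethylbenz[a]anthracene (DMBA) by mouth, and the diets began at 3 weeks of age. Mice were kept on feed rich in fat (HFD) or poor in fat (LFD), or changed at 9 weeks of age from high to low fat (HFD-LFD) or from low to high fat (LFD-HFD). Tumors were labelled early or late by their time of onset, which gave 3 HFD Early, 3 HFD-LFD Early, 5 LFD Late, 6 HFD Late, 4 LFD-HFD Late and 3 HFD-LFD Late tumors. The study's text counts early and continuous LFD tumors on arrays differently from the labels, and the labels were followed. The labels do not say whether any tumors came from the same mouse, so p-values measure the spread between these tumors. The names MSU_62a and MSU_62b, and MSU_59a and MSU_59b, share a number, although each of these tumors carries another diet label than its namesake. The tissue was bulk tumor, in which fewer cells of a type and less RNA per cell cannot be told apart.

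Fcgbp encodes the IgG Fc-binding protein, a large secreted component of mucus that is found together with gel-forming mucins. Pigr encodes the polymeric immunoglobulin receptor, which carries IgA across secretory epithelium and is abundant in the lactating mammary gland. The mucins of this group are membrane-bound glycoproteins: Muc1 lines the apical surface of luminal epithelium, Muc4 can bind the ErbB2 receptor, Muc15 is a protein of the milk fat globule membrane, and Muc20 can bind the Met receptor.

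Probe sequences decide what was measured, and 2 of them are shown because one carried the widest-ranging measurement and the other was set aside. Fcgbp was read by probe A_51_P380078 at mm9 chr7:28905517-28905576 on the plus strand, and a second Fcgbp probe lay at chr7:28873024-28873083. The second Pigr probe, A_55_P1960999, was placed by the array annotation at mm9 chr13:108165151-108165210 on the minus strand, whereas Pigr and its other probe lie on chromosome 1. In the lines here, capitals mark a run of only G and A, which filled all 60 bases of the Pigr probe. Such a run was present in 23 of 39429 probes (0.0583%), and this probe was not used for Pigr.
Fcgbp A_51_P380078: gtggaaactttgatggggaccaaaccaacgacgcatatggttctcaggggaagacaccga
Pigr A_55_P1960999: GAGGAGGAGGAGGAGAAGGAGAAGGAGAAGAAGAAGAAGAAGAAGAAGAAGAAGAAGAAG

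The other genes were read by probes at mm9 chr1:132748041-132748100 (Pigr), chr3:89034965-89035024 (Muc1), chr16:32782278-32782337 (Muc4), chr2:110577682-110577741 (Muc15) and chr16:32786143-32786202 on the minus strand (Muc20). Muc4 and Muc20 are neighbours on chromosome 16 whose gene models overlap end to end on opposite strands. No mm9 annotation of exons was used here, so the probes were not placed in exons or untranslated regions.

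Promoters are shown for the 3 genes with the lowest early tumor levels relative to late tumors, Fcgbp, Muc1 and Muc20, and for Pigr. Each is a window of 300 bases that ends shortly after the RefSeq start site in GRCm38.p6, 5′ to 3′ on the gene's strand. Capitals mark matches on either strand to motif letters that are spelled out after the sequences.
Fcgbp promoter, chr7:28070986-28071285, plus strand: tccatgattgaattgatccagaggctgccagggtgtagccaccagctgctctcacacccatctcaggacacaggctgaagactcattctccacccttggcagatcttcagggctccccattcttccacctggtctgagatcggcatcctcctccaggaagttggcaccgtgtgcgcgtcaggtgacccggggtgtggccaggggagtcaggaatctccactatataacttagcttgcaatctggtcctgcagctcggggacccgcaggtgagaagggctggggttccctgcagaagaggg
Muc1 promoter, chr3:89228806-89229105, plus strand: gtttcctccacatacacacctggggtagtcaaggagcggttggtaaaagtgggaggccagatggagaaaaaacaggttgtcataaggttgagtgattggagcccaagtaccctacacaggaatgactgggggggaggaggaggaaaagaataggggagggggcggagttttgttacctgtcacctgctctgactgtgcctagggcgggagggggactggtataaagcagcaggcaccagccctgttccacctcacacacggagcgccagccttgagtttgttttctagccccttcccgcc
Muc20 promoter, chr16:32797386-32797685, minus strand: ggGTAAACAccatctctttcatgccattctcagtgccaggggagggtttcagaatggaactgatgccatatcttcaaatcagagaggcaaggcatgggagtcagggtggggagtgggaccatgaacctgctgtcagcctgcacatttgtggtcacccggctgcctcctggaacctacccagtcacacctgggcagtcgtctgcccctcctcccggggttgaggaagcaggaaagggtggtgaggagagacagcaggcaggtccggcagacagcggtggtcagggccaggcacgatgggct
Pigr promoter, chr1:130826434-130826733, plus strand: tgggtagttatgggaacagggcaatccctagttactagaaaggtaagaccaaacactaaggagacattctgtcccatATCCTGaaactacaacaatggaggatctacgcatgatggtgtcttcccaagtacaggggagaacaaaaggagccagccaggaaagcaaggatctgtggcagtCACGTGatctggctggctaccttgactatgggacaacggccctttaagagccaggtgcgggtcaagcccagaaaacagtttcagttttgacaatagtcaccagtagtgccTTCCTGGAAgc

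None of the searched letters occurred in the Fcgbp and Muc1 windows. The Muc20 window held TGTTTAC (FOXA core) on the opposite strand at position -248 from the start site, and 3.65% of 32841 RefSeq promoters of this length held it. The SPDEF core ATCCTG lay at -173 in the Pigr window and occurred in 16.2% of promoters. An E-box of the letters CACGTG lay at -71 in the same window and occurred in 7.15% of them. The STAT5 core TTCNNNGAA lay at +39 there and occurred in 8.3%. The Muc4 window, not printed, held AGATAA, the core of sites for GATA factors, on the opposite strand at positions 7 and 31, against 11.2% of promoters with a match. The longer NF-kB and IRF motifs, present in 0.155% and 3.44% of promoters, had no match in the promoters searched.

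All levels are log2 ratios of tumor over reference RNA. The study's methods place the reference in the Cy5 channel, whereas the sample labels place the tumor there, and the labels were followed. Over 17879 spots the median SD between arrays was 0.477 in Cy5 and 0.190 in Cy3, and Cy5 lay further from the median array in 24 of 24 arrays. Spots for the Y chromosome genes Ddx3y and Eif2s3y, which female tumors lack, were brighter in Cy3 in 40 of 40 measurements. Tumor RNA gave a signal clearly over background at 65.7% to 89.1% of an array's spots. On 7 arrays of 2 slides, all of late tumors, a continuous block of rows was dimmed, with median ratios down to -7.16, and its spots were treated as missing. As a result Pigr and Muc20 were measured in 21 tumors, Muc1 in 20, and Fcgbp, Muc4 and Muc15 in 24.

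Fcgbp, the mucus protein, was low in 5 of 6 early tumors and spanned the widest range of this gene group. Its log2 ratio was 1.26, -2.98 and -3.71 in the HFD Early tumors MSU_163, MSU_768 and MSU_97. In the HFD-LFD Early tumors MSU_51, MSU_54 and MSU_62b it was -2.44, -2.92 and -3.26. Tumor MSU_163 thus stood apart from the other early tumors, which lay within a narrow band.

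Among late tumors Fcgbp ranged from high to low, with some tumors between. LFD Late tumors MSU_105, MSU_122a, MSU_34, MSU_137 and MSU_28 had 4.13, 3.13, 2.43, -2.08 and -2.85. The 6 HFD Late tumors ran from -3.51 in MSU_96 through a median of 1.48 to 3.37 in MSU_84. LFD-HFD Late tumors MSU_24, MSU_42, MSU_45 and MSU_59a had 2.14, 3.43, 3.43 and 1.11, and HFD-LFD Late tumors MSU_26, MSU_58 and MSU_59b had 2.19, 3.20 and -0.65. In 11 of 18 late tumors Fcgbp lay above the highest early tumor, MSU_28 and MSU_96 lay among the low early tumors and MSU_137 just above them, so the groups overlapped. Only 1 of 6 early tumors, MSU_97, was below every late tumor, while 6 of 6 were below the late median.

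**Figure D1:**
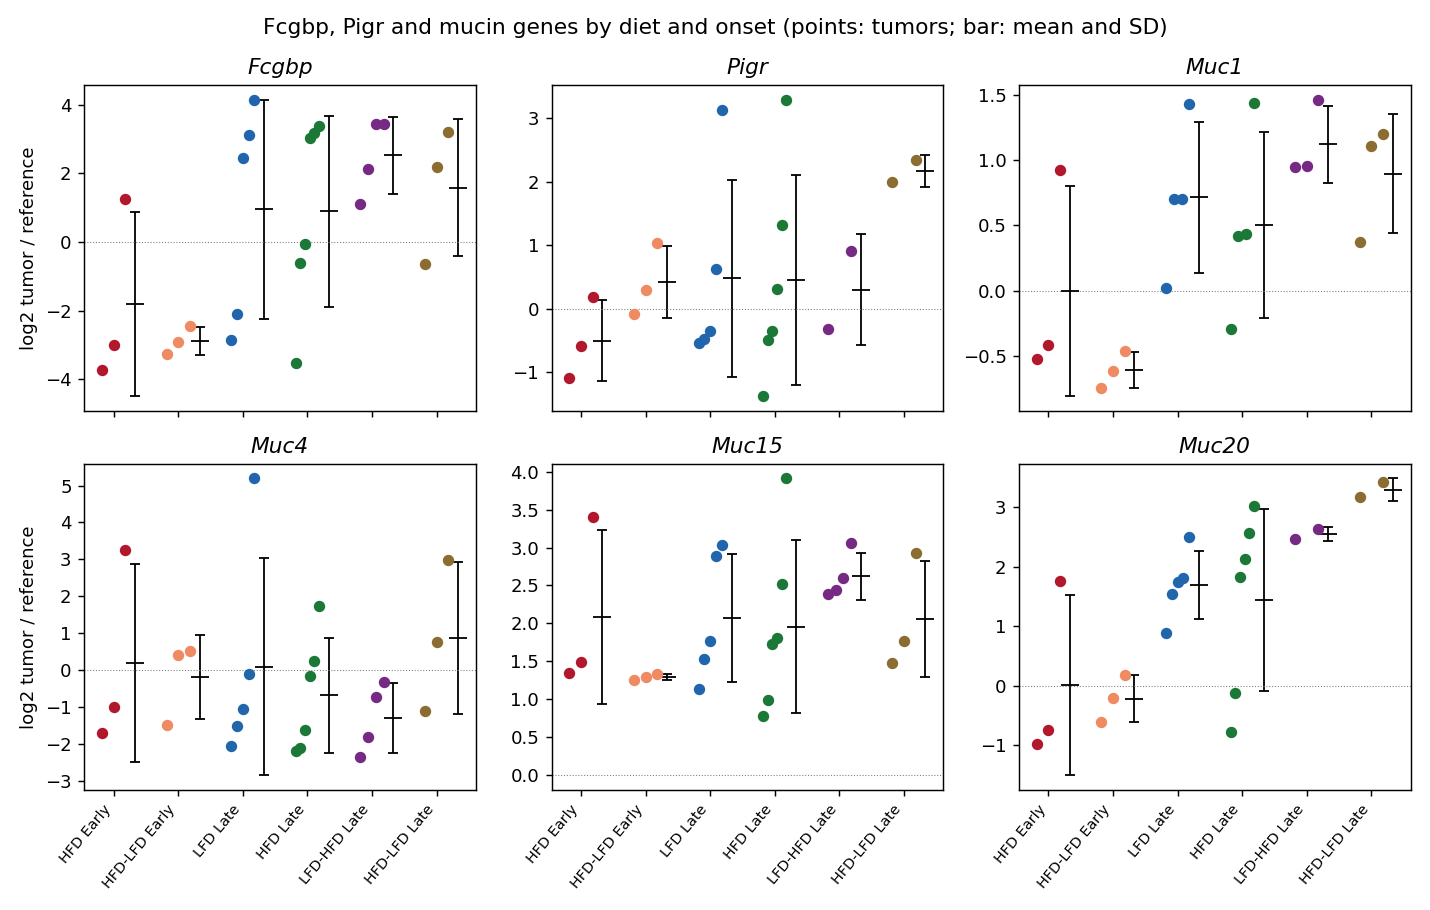
Log2 tumor over reference of each gene (vertical axis, own scale per panel) by diet and onset group (horizontal axis); points are tumors, and the black bar beside them is the mean with its SD. In Fcgbp, 1 HFD Early tumor at 1.26 lies above 5 early tumors at -2.44 or lower, and LFD Late and HFD Late tumors spread from above 3 to below -2.

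The mean Fcgbp level was -2.34 ± 1.81 (SD, n = 6) for early tumors and 1.39 ± 2.41 (SD, n = 18) for late ones, which put early tumors at -3.73 ± 1.02 (SE) relative to late tumors, or 13.3-fold lower. Both diets had this direction, at -2.71 for HFD alone and -4.45 for HFD-LFD alone. Within the first scanning session, which held HFD Early and 8 late tumors, the difference was -3.88, and within the second, which held HFD-LFD Early and 3 late tumors, it was -5.81. Without MSU_163 it was -4.45 over all tumors and -4.24 within HFD.

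A second Fcgbp probe followed the first. Across 24 tumors the probes had r = 0.905 (across 18 late tumors r = 0.884), as a description of 2 probes on the same arrays. The second probe was well above background in 20 of 24 tumors. The 3 HFD-LFD Early tumors and MSU_137 were those below, so their values are bounds and no difference is given on this probe.

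Muc20, the mucin that can bind Met, was also lower in early tumors. Levels were 1.75, -0.74 and -0.97 in HFD Early tumors MSU_163, MSU_768 and MSU_97, and -0.61, 0.18 and -0.20 in HFD-LFD Early tumors MSU_51, MSU_54 and MSU_62b. LFD Late tumors MSU_105, MSU_122a, MSU_137, MSU_28 and MSU_34 had 1.75, 0.89, 2.50, 1.54 and 1.81. In HFD Late tumors Muc20 ran from -0.77 in MSU_86 to 3.02 in MSU_62a. These late values were mostly above those of 5 early tumors, with MSU_86 and MSU_96 (-0.12) as the low exceptions.

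The highest Muc20 levels, 3.16 and 3.43, were in HFD-LFD Late tumors MSU_26 and MSU_58, followed by HFD Late tumor MSU_62a. LFD-HFD Late tumors MSU_24 and MSU_45 had 2.47 and 2.63, and the other late tumors of both crossover diets had no value. Of 15 late tumors with a value, 10 lay above the highest early tumor, and the groups overlapped through MSU_163, MSU_86 and MSU_96. The early mean was 2.02 ± 0.51 (SE) below the late mean on the log2 scale, a 4.06-fold difference, with -1.43 within HFD (-2.30 without MSU_163) and -3.51 within HFD-LFD. Values within the first and second scanning session were -1.63 and -3.29. A second Muc20 probe, for another transcript, was well above background in only 6 of 24 tumors and in none of the early tumors, so no fold is given for it.

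Muc1, the apical luminal mucin, moved over a smaller range. In early tumors it was 0.92 in MSU_163, -0.42 in MSU_768, -0.52 in MSU_97, -0.74 in MSU_51, -0.62 in MSU_54 and -0.47 in MSU_62b. Late tumors ran from -0.29 in MSU_86, whose spot was not well above background, through a median of 0.82 to 1.46 in MSU_42. The value of MSU_86 is a bound, so early tumors are not ranked against it. Apart from MSU_86, 5 of 6 early tumors were below every late tumor measured, and MSU_163 lay within the late range. The late tumors MSU_28, MSU_93, MSU_96 and MSU_24 had no Muc1 value. Of these, MSU_96 was low in Muc15 (0.78) and Muc20 (-0.12), while the others had Muc15 and Muc20 levels of 1.53 or more. The separation thus covers only the late tumors measured.

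The mean Muc1 level was -0.31 ± 0.61 (SD, n = 6) for early tumors and 0.78 ± 0.54 (SD, n = 14) for late ones, which is -1.09 ± 0.26 (SE) or 2.12-fold. It was -0.51 within HFD (-0.97 without MSU_163) and -1.50 within HFD-LFD. Within the first scanning session the difference was -0.61 and within the second -1.70, so its size changed with the arrays compared. With the dimmed rows kept, the difference within HFD became 0.04.

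Pigr, the IgA transporter, separated early from late tumors less. Early tumors ran from -1.10 in MSU_97 through a median of 0.05 to 1.04 in MSU_54, and late tumors from -1.38 in MSU_86 through 0.31 to 3.29 in MSU_62a. The spot of MSU_86 was not well above background, so its value is a bound. The high late tumors were MSU_62a, MSU_137 (3.13), MSU_58 (2.35) and MSU_26 (1.99). Of 15 late tumors, 7 lay below the early median, so most of both groups overlapped. The difference between early and late means was -0.71 ± 0.59 (SE). It was -0.95 within HFD (-1.29 without MSU_163) and -1.76 within HFD-LFD, where 2 late tumors had a value.

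Muc4, the ErbB2-binding mucin, had no common direction. It was 3.26 in HFD Early tumor MSU_163 and between -1.71 and 0.53 in the other early tumors. Late tumors ran from -2.36 in MSU_59a through -0.89 to 5.19 in MSU_137, the highest Muc4 level of all tumors, followed by MSU_163 and HFD-LFD Late tumor MSU_26 (2.98). The early minus late difference was 0.35 ± 0.87 (SE) and turned to -0.30 without MSU_163. It was 0.87 within HFD, where it turned to -0.67 without MSU_163, and -1.06 within HFD-LFD.

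Muc15, of the milk fat globule membrane, was above the reference in every tumor. Early tumors other than MSU_163 lay between 1.25 and 1.49, and MSU_163 was at 3.40. Late tumors ran from 0.78 in MSU_96 through a median of 2.10 to 3.91 in MSU_62a. The early minus late difference was -0.47 ± 0.38 (SE), and it was 0.12 within HFD and -0.77 within HFD-LFD. Without MSU_163 it was -0.81 over all tumors and -0.54 within HFD.

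In the fit over all 20880 genes tested, 3 of 6 genes of this group (Fcgbp, Muc1 and Muc20) were past the threshold for early against late, all lower, beside 17.1% of all genes past it, 10.5% lower and 6.58% higher. This contrast chose the group, so nothing is read from the count. Only 1 slide held both onsets, with the 3 HFD-LFD Early tumors and 1 late tumor, MSU_45, so slide as a fixed block compares these alone. In that fit 0 of the 3 genes and 71 of all genes were past the threshold. Within the first scanning session 0 of the 3 were past it, and within the second, and with session as a block, 3 of 3 were. Within HFD and within HFD-LFD, where 12.6% and 0.785% of genes were past it, 0 of 6 were. The median difference was -0.90 over the 6 genes and -0.06 over all genes.

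The scaling of the arrays changed the median of all genes and the balance of directions. With loess 1374 of 3568 genes past the threshold (38.5%) were higher in early tumors, whereas with each array centred on its median 4176 of 5098 (81.9%) were higher and the median of all genes was 0.21. In the tumor channel alone 1424 of 2462 (57.8%) were higher. Fcgbp, Muc1 and Muc20 were lower in early tumors under each of these, at -3.45, -1.17 and -1.92 with median centring and at -3.84, -1.41 and -2.15 in the tumor channel alone. Within HFD the share higher was 44.8%, 89.8% and 65.9% under these scalings, and within HFD-LFD it was 59.8%, 94.6% and 86.4%.

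**Figure D2:**
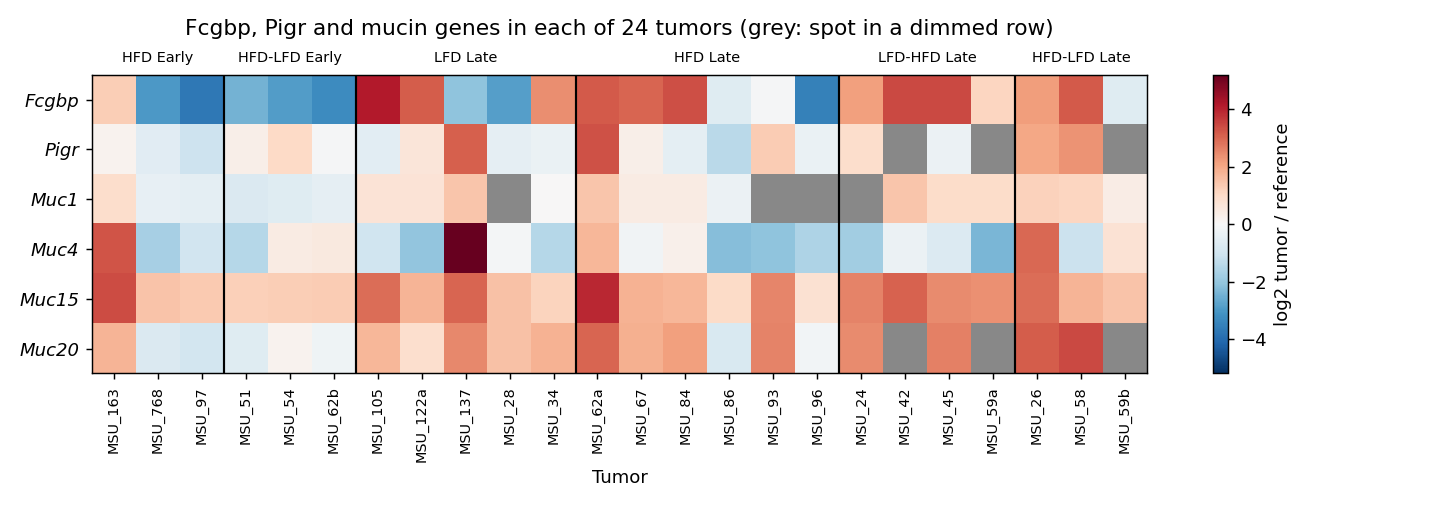
Log2 tumor over reference (color) of each gene (rows) in each of 24 tumors (columns, grouped by diet and onset); grey marks spots in dimmed rows. MSU_163 is high in Fcgbp (1.26), Muc1 (0.92), Muc4 (3.26), Muc15 (3.40) and Muc20 (1.75) among early tumors, and MSU_137 joins the highest Muc4 (5.19) with a low Fcgbp (-2.08).

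Read by tumor, MSU_163 was the highest early tumor in Fcgbp, Muc1, Muc4, Muc15 and Muc20, but not in Pigr, where it had 0.18. Tumor MSU_62a was the highest HFD Late tumor in Pigr, Muc1, Muc4, Muc15 and Muc20. MSU_86 was the lowest late tumor in Pigr, Muc1 and Muc20, and its spots for Pigr, Muc1 and Muc4 were not well above background. MSU_137 was high in Pigr and Muc4 yet low in Fcgbp.

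Levels of cell type marker lists, as the mean log2 ratio of list genes measured in all tumors, moved with some of these values. For 8 squamous genes, MSU_163 was at -3.11, near the late median of -3.32, while the other early tumors lay between -1.29 and -0.22. MSU_86 had the highest squamous level (2.42) and the lowest level of 7 luminal genes (-2.48). Luminal levels were otherwise between -0.16 and 1.48 in early and up to 2.20 in late tumors, and Krt8, Krt18 and Epcam were well above background wherever measured. The part of squamous or luminal content in the levels of Fcgbp and the mucins was not tested.

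Salivary gland genes were also measured, since Pigr and mucins are made there as well. Over 13 salivary genes the level was 0.88 in HFD-LFD Early tumor MSU_54, the highest of all tumors, and -0.37 in MSU_26, against -3.84 to -1.94 in the other early and -3.23 to -2.46 in the other late tumors. MSU_54 had the highest early Pigr level and MSU_26 the second-highest Muc20 level. Their part in those levels was not tested.

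Across groups, the order of the mean Fcgbp level was LFD-HFD Late (2.53), HFD-LFD Late (1.58), LFD Late (0.95), HFD Late (0.90), HFD Early (-1.81) and HFD-LFD Early (-2.87). None of the 5 gaps between neighbours in this order exceeded the larger SD of the pair, and the same held for Muc1, Muc4 and Muc15. For Pigr 1 of 5 gaps did, that of HFD-LFD Late (2.17, n = 2) over LFD Late (0.48). For Muc20 2 of 5 did, with HFD-LFD Late (3.30, n = 2) over LFD-HFD Late (2.55, n = 2) and LFD-HFD Late over LFD Late (1.70).

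Spread among late tumors was large beside that of other genes. The median SD among late tumors was 0.37 over 20880 genes. It was 2.41 for Fcgbp, larger than in 99.7% of genes, 1.99 for Muc4 (99.4%), 1.45 for Pigr (98.3%) and 1.17 for Muc20 (96.8%). Muc15 with 0.84 (91.5%) and Muc1 with 0.54 (76.2%) varied less. Fcgbp and Muc4 thus differed more between late tumors than nearly all genes tested.

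Diet comparisons at one onset were not used to choose the genes and were tested by limma with Benjamini-Hochberg adjustment over all genes. HFD Late and LFD Late tumors, which compare the continuous diets among late tumors only, did not differ detectably in any of the 6 genes. Apart from MSU_28, MSU_93 and MSU_96, these HFD Late and LFD Late tumors lay on different slides. Slide and continuous diet therefore cannot be fully told apart. No gene of 20880 passed (0%), while 1721 had an unadjusted p under 0.05. Fcgbp differed by -0.06 (95% interval -2.91 to 2.80, adjusted p = 0.993), and Muc4 by -0.78 (-3.18 to 1.63, adjusted p = 0.889). Pigr differed by -0.03 (-1.58 to 1.52), Muc1 by -0.21 (-1.005 to 0.58), Muc15 by -0.12 (-1.14 to 0.91) and Muc20 by -0.25 (-1.55 to 1.04). Intervals of this width leave room for differences of several fold in Fcgbp and Muc4.

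Pubertal diet, taken as HFD Late and HFD-LFD Late against LFD Late and LFD-HFD Late tumors, gave 0 of 6 genes and 0% of all genes past the threshold, with 1883 genes at an unadjusted p under 0.05 in limma. Differences ranged from -0.50 (-2.80 to 1.80) in Fcgbp to 0.92 (-0.57 to 2.42, adjusted p = 0.698) in Pigr. Adult diet, taken as HFD Late and LFD-HFD Late against LFD Late and HFD-LFD Late tumors, also gave 0 of 6 and 0%, with 1213 at an unadjusted p under 0.05. The largest value was -1.48 (-3.41 to 0.46, adjusted p = 0.876) in Muc4, and Fcgbp differed by 0.44 (-1.86 to 2.74). Muc1 differed by 0.01 (-0.60 to 0.61). In both comparisons the diets shared slides only in part, so slide and diet cannot be fully told apart.

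HFD Early and HFD-LFD Early tumors were compared to ask whether early tumors depended on the adult diet. In limma 10.1% of all genes were past the threshold and 0 of 6 in this group. Fcgbp differed by 1.06 (-2.79 to 4.91, adjusted p = 0.769), Muc1 by 0.60 (-0.31 to 1.52, adjusted p = 0.406) and Pigr by -0.92 (-3.00 to 1.17, adjusted p = 0.607), beside 6 of 16 salivary markers lower in HFD Early tumors, whose part in the Pigr value was not tested. Without MSU_163, the differences were -0.47 in Fcgbp, 0.14 in Muc1, 0.13 in Muc15, -0.64 in Muc20 and -1.16 in Muc4. HFD Early tumors were alone on their slide, so the slide and the adult diet cannot be told apart, and with scanning session as a block the Fcgbp difference was -1.02.

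Whether early and late tumors differed to another extent in HFD than in HFD-LFD was described only, since it uses the contrast that chose the genes. The differences of these changes were between 0.80 in Pigr and 2.08 in Muc20, all above 0, and 0% of all genes passed in limma, with 1659 at an unadjusted p under 0.05. Without MSU_163 each was smaller, between 0.21 in Fcgbp and 1.21 in Muc20. Over continuous HFD (9 tumors of both onsets) against LFD (5 tumors), the values lay between -0.96 in Fcgbp and -0.07 in Muc15, with 0% of all genes past the threshold and 905 at an unadjusted p under 0.05.

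Among late tumors alone, the genes were correlated in 15 pairs, with two-sided permutation tests and adjustment over the 15. Muc1, Muc15, Muc20 and Pigr varied together, and Fcgbp did not vary detectably with any of them. The r of Fcgbp with Muc1 depended on which tumors were used. In 7 of 15 pairs the adjusted p of Pearson's r was under 0.05, in 6 for Spearman's rho, and r was above 0 in 14.

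Muc1 and Muc15 had r = 0.869 (adjusted p = 0.00105) and rho = 0.925 (adjusted p = 0.00045) over 14 tumors by permutation, and r = 0.797 without the tumors MSU_86 and MSU_34, farthest from the median. Pigr and Muc1 had r = 0.870 (permutation, adjusted p = 0.00435) and rho = 0.845 (adjusted p = 0.00925) over 11 tumors, and r = 0.783 without MSU_62a and MSU_137. Muc1 and Muc20 had r = 0.798 (adjusted p = 0.0105) and rho = 0.745 (adjusted p = 0.0273) over 11 tumors, and r = 0.598 without MSU_86 and MSU_62a. In each of these pairs, tumors high in one gene were high in the other. The bounds of MSU_86 in Pigr, Muc1 and Muc4 were kept as values in every r and rho over late tumors. They also stayed in where only MSU_62a and MSU_137 were left out.

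Pigr and Muc20 had r = 0.692 (permutation, adjusted p = 0.0109) and rho = 0.761 (adjusted p = 0.00925) over 15 tumors, with r = 0.722 without MSU_62a and MSU_137. Muc15 and Muc20 had r = 0.698 (adjusted p = 0.0105) and rho = 0.682 (adjusted p = 0.0216), with r = 0.696 without the same tumors. Pigr and Muc15 had r = 0.704 (adjusted p = 0.0105) and rho = 0.675 (adjusted p = 0.0216), with r = 0.479 without them. Pigr and Muc4 had r = 0.634 (adjusted p = 0.0211) but rho = 0.336 (adjusted p = 0.278), and r fell to 0.293 without MSU_62a and MSU_137, so that relation rested on these tumors.

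Fcgbp had r = 0.469 with Muc20 (permutation, adjusted p = 0.107), r = 0.411 with Muc15 (adjusted p = 0.114), r = 0.158 with Muc1 (adjusted p = 0.652), r = 0.0803 with Pigr (adjusted p = 0.774) and r = -0.134 with Muc4 (adjusted p = 0.652). Spearman's rho of these pairs lay between -0.0143 and 0.428, with adjusted p from 0.147 to 0.964. Without MSU_96 and MSU_28, farthest from the median, r of Fcgbp was 0.252 with Muc20, 0.166 with Muc15, -0.218 with Pigr and -0.286 with Muc4. Muc1 had no value in MSU_96 and MSU_28, the late tumors lowest in Fcgbp. Its r with Fcgbp was 0.506 without MSU_137 and MSU_59b, and 0.535 (permutation, adjusted p = 0.110) with the dimmed rows kept. The remaining pairs, of Muc4 with Muc1, Muc15 and Muc20, had r of 0.537, 0.476 and 0.457 and adjusted p of 0.0757, 0.0757 and 0.110, with rho of 0.415, 0.373 and 0.471.

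Within the first scanning session, with 8 late tumors, r was 0.921 for Muc1 and Muc15, 0.919 for Pigr and Muc1, 0.758 for Muc1 and Muc20, 0.805 for Pigr and Muc15, 0.696 for Pigr and Muc20 and 0.719 for Muc15 and Muc20. The second session held 3 late tumors, too few for r. Fcgbp and Muc15 had r = 0.0845 in the first session and 0.926 over the 7 late tumors of the third, so their relation differed between sessions, and that difference was not tested. With the dimmed rows kept, 1 of 15 pairs had an adjusted p under 0.05, and r of Muc1 and Muc20 was -0.0155.

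**Figure D3:**
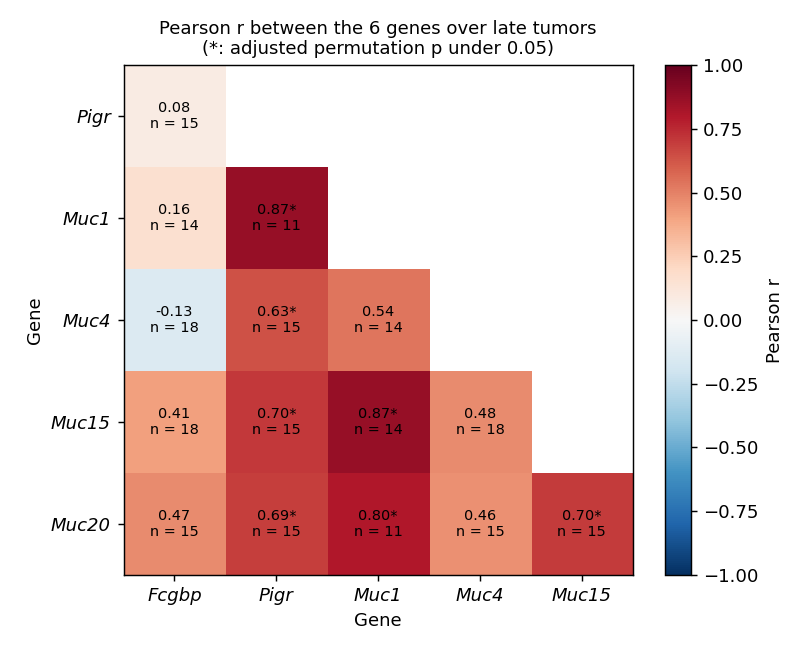
Pearson's r (color and number) between each pair of genes over late tumors with a value for both; rows and columns are genes, n is the number of tumors, and an asterisk marks an adjusted permutation p under 0.05. Muc1, Muc15, Muc20 and Pigr form a block with r from 0.69 to 0.87, and the Fcgbp column stays between -0.13 and 0.47.

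The genes with 2 probes differed in how far the probes followed each other. Fcgbp had r = 0.905 (n = 24), Muc4 0.775 (n = 24), Muc20 0.677 (n = 21) and Pigr 0.212 (n = 17), the last with the G and A probe printed above. Over late tumors alone r was 0.884 for Fcgbp, 0.769 for Muc4, 0.546 for Muc20 and -0.16 for Pigr. The second Muc4 probe was well above background in 14 of 24 tumors and ranged from -0.23 to 2.04, with MSU_137 highest on both probes.

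**Figure D4:**
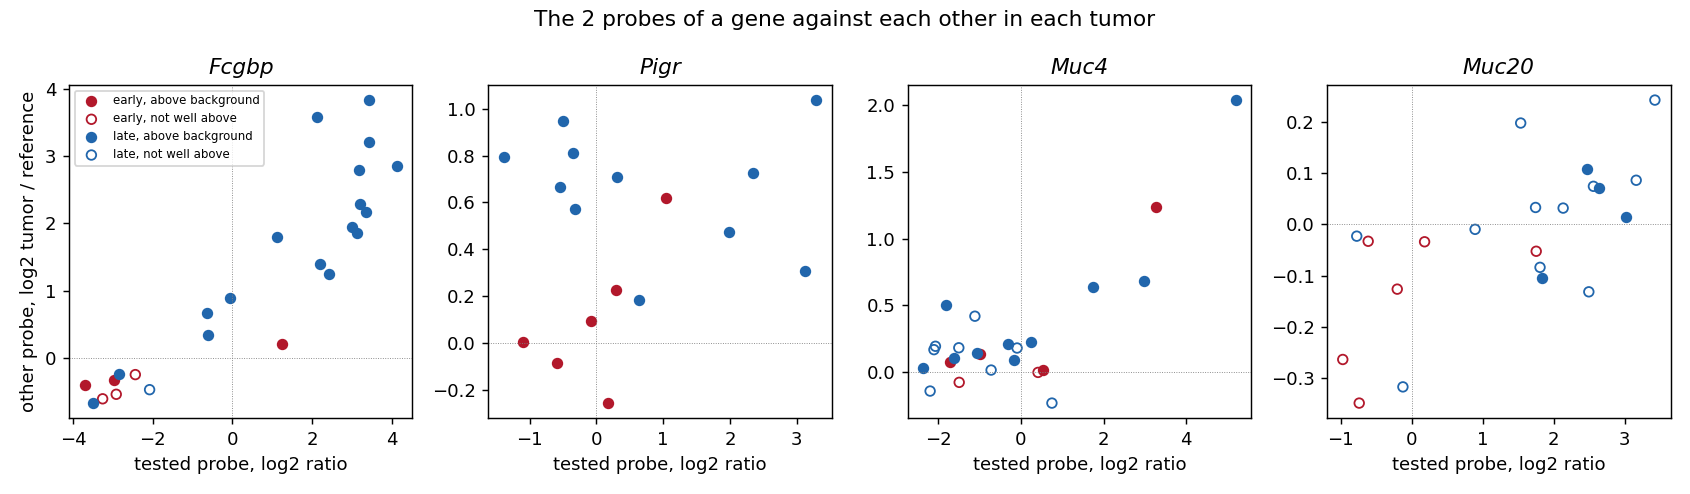
Log2 tumor over reference of the tested probe (horizontal) and of the other probe (vertical, own scale per panel) in each tumor, red for early and blue for late, open where the other probe was not well above background. The Fcgbp probes rise together (r = 0.905), and the Pigr repeat probe does not follow the tested probe (r = 0.212).

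Other genes were ranked by Pearson's r to each of the 6 over all tumors with both values, as a description of likeness over these libraries. For Fcgbp the most alike of 20879 genes included Slc35f3 (r = 0.950, n = 20), Fam174b (0.944, n = 21), Stc2 (0.942, n = 24), Slc9a3r2 (0.932, n = 24), Prlr (0.931, n = 24), Shisa4 (0.925, n = 20), Selenom (0.917, n = 20), Mfge8 (0.916, n = 20) and R3hdml (0.915, n = 24). Prlr is the prolactin receptor, Stc2 a secreted glycoprotein hormone and Mfge8 a protein of the milk fat globule. Over late tumors alone, r of these genes with Fcgbp lay between 0.783 in Mfge8 and 0.920 in Shisa4. Of the other 5 genes of the group, Muc20 came closest to Fcgbp, at rank 737.

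For Muc20 the most alike were Echdc3 (r = 0.935, n = 21), Trf (0.932, n = 17), Tmc4 (0.932, n = 21), Selenbp1 (0.927, n = 21) and Trim46 (0.925, n = 21), and Muc1 ranked 10. For Muc1 they were Trf (0.916, n = 20), Cmpk2 (0.912, n = 17), Litaf (0.908, n = 20), Lrg1 (0.907, n = 20) and Plpp2 (0.903, n = 20), and Muc20 ranked 7. Trf, the iron carrier transferrin, which milk-secreting epithelium makes, was thus on both lists. Muc1 was also among the most alike for Muc15 (r = 0.837, n = 20), after Lao1 (0.843, n = 20) and the milk gene Lalba (0.838, n = 24), and before Ogfrl1 (0.833, n = 24) and Zfp667 (0.815, n = 24).

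Muc4 was most like Prtn3 (r = 0.888, n = 24), Kcnn4 (0.832, n = 20), the casein gene Csn1s1 (0.830, n = 21), Cel (0.818, n = 24) and Dpagt1 (0.816, n = 24). Pigr was most like Stkld1 (r = 0.839, n = 21), G0s2 (0.792, n = 17), Rab11fip5 (0.776, n = 21), an unnamed transcript (0.765, n = 21) and Mrpl46 (0.759, n = 21). No gene occurred in the lists of both Muc4 and Fcgbp.

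Genes beside the 6 on their chromosomes were compared as well. Next to Muc1, Trim46 was lower in early tumors by 1.35 ± 0.39 (SE) on the log2 scale and had r = 0.875 with Muc1 (n = 20), while Thbs3 on the other side differed by 0.18. Beside Fcgbp, Psmc4 differed by -0.04 and Fbl by 0.26. Neighbours of Pigr, AA986860 and Fcmr, differed by 0.44 and -0.45. Fibin and Olfr268-ps1 beside Muc15 differed by 1.08 and 0.16. Tnk2os beside Muc4 differed by -0.21 and Rubcn beside Muc20 by -0.04.

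Wider pathways were read from 7 lists of genes that share a role with the 6, by counts past the threshold in early against late tumors. These lists and the marker lists were chosen with earlier results of these data known. Early against late also chose the 6 genes, so the counts and adjusted p of the lists are a description and no independent support. Since directions moved with the scaling, each list is also given with median centring of the arrays. Over all genes 10.5% were lower and 6.58% higher, and with median centring 4.42% were lower and 20% higher. Of other mucin and mucin-like genes, 4 of 12 tested were lower and 0 higher (with median centring 2 lower and 1 higher). Their median difference was -0.45 against -0.06 over all genes. Among the 4 was Smgc (-0.69), which is also counted as a salivary marker, and the part of salivary tissue was not tested. Cd164, a small membrane mucin, differed by -1.69 ± 0.35 (SE, adjusted p = 0.00365 in limma), Muc16 by -2.64 ± 0.66 (adjusted p = 0.0106) and the gel-forming Muc5b by -0.54 ± 0.17 (adjusted p = 0.0309), which became -0.04 (adjusted p = 0.869) with median centring. Muc1 and Muc20 are not counted in this list.

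Genes of the mucus secretion program were lower in 9 of 21 (42.9%, against 10.5% of all genes) and higher in 0, with a median of -0.40. With median centring 4 (19.05%, against 4.42% of all genes) were lower and 1 higher. Within HFD 6 were lower, where 12.6% of all genes were past the threshold, and within HFD-LFD 0, where 0.785% were. Qsox1, a sulfhydryl oxidase of the secretory pathway, fell by 1.38 ± 0.17 (adjusted p = 9.44e-05 in limma), the trefoil peptide Tff2 by 0.74 ± 0.14 (adjusted p = 0.00177) and Clca3a1, a secreted chloride channel accessory protein, by 2.66 ± 0.66 (adjusted p = 0.0091). Tff2 was at -0.32 (adjusted p = 0.0677) with median centring. The mean level of 12 of these genes had r = 0.822 with Fcgbp and 0.721 with Muc20 over late tumors, as a description over 18 and 15 tumors. Its values in early tumors were -1.60 to -0.91 apart from MSU_163 at -0.14, and its late median was 0.32. The groups overlapped, with late tumor MSU_96 at -1.23, and MSU_86 (-0.49), MSU_59b (-0.38) and MSU_28 (-0.19) below MSU_163.

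For O-glycan synthesis, which builds the sugar chains of mucins, 3 of 24 genes (12.5%) were higher and 4 (16.67%) lower. Of all genes 6.58% were higher and 10.5% lower. With median centring 4 (16.67%) were higher and 1 (4.17%) lower, against 20% and 4.42% of all genes. Calls thus went both ways, while the median was -0.36. Galnt4 rose by 0.49 ± 0.11 (adjusted p = 0.00579 in limma) and St6galnac2 by 0.92 ± 0.23 (adjusted p = 0.00885), and Galnt15 fell by 1.94 ± 0.48 (adjusted p = 0.0103). Galnt4 and Galnt15 belong to the family that adds the first sugar of O-glycans, and St6galnac2 adds sialic acid.

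Around Pigr, the list of IgA transport and secreted mucosal defense genes had 4 of 27 (14.8%) lower and 1 (3.7%) higher (with median centring 2 lower and 1 higher), near the 10.5% and 6.58% of all genes, with a median of -0.37. The defensin Defb1 fell by 2.66 ± 0.48 (adjusted p = 0.00164 in limma), Cd14, a receptor for bacterial lipopolysaccharide, by 1.36 ± 0.37 (adjusted p = 0.015) and the peptidoglycan-binding Pglyrp1 by 0.98 ± 0.31 (adjusted p = 0.0326). Cd14 and Pglyrp1 were at -1.01 (adjusted p = 0.0723) and -0.60 (adjusted p = 0.204) with median centring. Cd14 is also counted as a macrophage marker, and the part of macrophages was not tested. The list's mean level over 17 genes had r = 0.748 with Pigr, 0.844 with Muc1 and 0.835 with Muc20 over late tumors. Of regulators of Pigr transcription and Fc receptors, 4 of 20 (20%) were lower and 0 higher, against 10.5% and 6.58% of all genes. With median centring 1 (5%) was lower and 4 (20%) higher, against 4.42% and 20%. Within HFD 3 were lower and 2 higher, where 12.6% of all genes were past the threshold. Irf1 was at -1.07 ± 0.19 (adjusted p = 0.00124 in limma), Trim21 at -0.90 ± 0.21 (adjusted p = 0.00817) and Relb at -0.49 ± 0.12 (adjusted p = 0.0106). The list's median of -0.09 was close to that of all genes. With median centring Trim21 was at -0.68 (adjusted p = 0.0966) and Relb at 0.02 (adjusted p = 0.929).

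Of partners of Muc1 and Muc4, 1 of 12 (8.33%) was higher and 0 lower, near the 6.58% of all genes higher. With median centring 2 (16.67%) were higher, against 20% of all genes. Within HFD 3 were higher, where 12.6% of all genes were past the threshold in either direction. Ctnnb1, which encodes the beta-catenin that the Muc1 tail can bind, rose by 0.80 ± 0.16 (adjusted p = 0.00354 in limma). Sos1 differed by 0.34 ± 0.12 (adjusted p = 0.0577) and Erbb2, the receptor that Muc4 can bind, by 0.30 ± 0.13 (adjusted p = 0.109). With median centring Erbb2 was at 0.71 (adjusted p = 0.0116), where the median of all genes was 0.21.

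Luminal secretory regulators were lower in 7 of 19 (36.84%) and higher in 1 (5.26%), against 10.5% and 6.58% of all genes, with a median of -0.68. Within HFD, where 12.6% of all genes were past the threshold, 1 of 19 was lower, and within HFD-LFD, at 0.785%, 0 were, as for each of the 7 lists. Gata3, a transcription factor of luminal cells, differed by -2.15 ± 0.32 (SE, adjusted p = 0.000382 in limma), Prlr by -3.94 ± 0.87 (adjusted p = 0.00424) and Stat5b, which carries the prolactin signal, by -0.87 ± 0.21 (adjusted p = 0.00706). With median centring Stat5b was at -0.50 (adjusted p = 0.159). The list then had 5 (26.32%) lower and 3 (15.79%) higher, against 4.42% and 20% of all genes. The mean level of 13 of these genes had r = 0.791 with Fcgbp over 18 late tumors and 0.232 with Muc1 over 14.

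**Figure D5:**
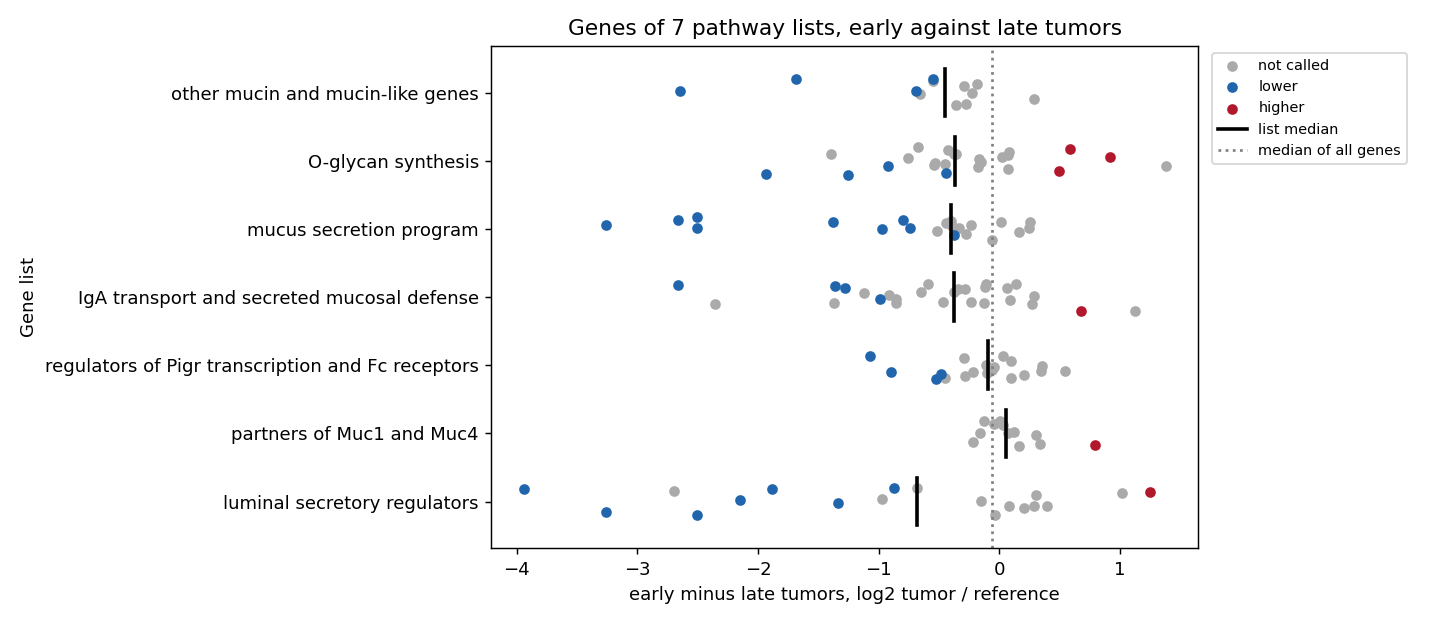
Early minus late difference (horizontal, log2 scale) of each tested gene of 7 pathway lists (vertical); blue and red points are genes called lower and higher, grey points were not called, black bars are list medians and the dotted line is the median of all genes. Mucus secretion genes have 9 blue points and no red one (4 lower and 1 higher with median centring, which is not plotted), and O-glycan genes have both.

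Marker lists of cell types gave the setting of these values. In early against late tumors, 1 of 10 luminal markers (Krt19), 3 of 10 basal, 1 of 8 milk (Csn3), 2 of 8 fibroblast and 2 of 16 salivary markers were lower, and 0 of 7 B and plasma cell and 0 of 7 adipocyte markers were called, beside 10.5% of all genes lower. Of 8 macrophage markers 1 was lower and 1 higher. Squamous markers had a median difference of 1.36, with 1 of 12 called, Sprr3, which was lower, whereas with median centring 5 were higher and 0 lower. Of the 16 salivary markers 4 were lower within HFD, with a median of -1.08, and 6 were lower in HFD Early than in HFD-LFD Early tumors, with a median of -1.58. With median centring 0 of 10 luminal and 0 of 8 milk markers were called, and of basal markers 1 was lower and 1 higher. Over late tumors the mean level of 2 milk genes measured in all tumors had r = 0.803 with Muc1 and 0.804 with Muc15, and 0.331 with Fcgbp. Fcgbp had r = 0.629 with the basal, 0.628 with the adipocyte, 0.462 with the luminal and -0.560 with the squamous level over 18 late tumors, as a description. The part of these cell types in the levels of the 6 genes was not tested.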

How the data were processed

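Scanner files of 24 arrays were analysed. The authors deposited, per the file headers (Feature Extraction 11.0.1.1; the submitters' processing notes give 8.5.1.1), unnormalized mean and background intensity in each dye, a background-subtracted intensity and a dye-normalized log10 ratio. Probe positions are on mm9. The 6 genes and all gene lists were chosen with earlier results of these data known. Analysis used limma 3.58.1 under R 4.3.3. Local background was removed with normexp (offset 50), ratios were normalized by loess and kept as log2, and spots of a probe were averaged. Bands of 10 rows more than 0.5 (log2) below an array's median were set missing, and outlier-flagged spots were imputed from 10 neighbours; no value of the 6 genes was imputed. Probes needed a signal over 10 in both channels on 80% of arrays. Each gene was read by its brightest probe, without 117 probes lying off their gene's chromosome, a rule chosen after the annotation was seen. Past the threshold means an adjusted p (Benjamini-Hochberg) under 0.05 over 20880 genes. Early and late were compared over 24 arrays, HFD and LFD over 14, and the others as contrasts of 6 group means; correlations used 100000 permutations. Named genes were the 6, the 10 (Fcgbp) or 5 most alike, the 3 with the smallest p in each list and chromosomal neighbours; others were named after their values were seen. One gene that this rule names is not reported here. Scripts were tested on simulated data. Alternatives covered background, normalization, dimmed rows, filters, probes, blocks for slide and session, array weights and leaving out arrays.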

Additional observations from a re-analysis of the deposited data

Results flagged for a closer look

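Among 21 groups of 4 to 10 tumors checked for a tumor far from the others, 4 had one. Chance gives about 1 in 20 for independent checks, but here the same tumors recurred across genes that vary together. The count is therefore not measured against chance. In 3 of the 4 groups the far tumor was HFD Early tumor MSU_163 among the 6 early tumors. Its gap to the nearest early tumor was 0.744 of the whole range in Fcgbp (1.26 against -2.44), 0.804 in Muc1 (0.92 against -0.42) and 0.888 in Muc15 (3.40 against 1.49). The other was LFD Late tumor MSU_137 in Muc4, with a gap of 0.728 of the range (5.19 against -0.09).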

How the results depend on the processing

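Counts of genes past the threshold moved more than the values of the 6 genes; unless the construction is given, the cause was not tested. With loess and no block, 3568 genes were past it for early against late, 2627 within HFD, 164 within HFD-LFD, 2109 for HFD Early against HFD-LFD Early and 0 for the other comparisons. Median centring gave 297 within HFD-LFD and 668 for the early diets, and the scanner's log ratio gave 4 for the difference of onset changes between diets. The tumor channel alone gave 1157 within HFD, 66 within HFD-LFD and 732 for the early diets. With dimmed rows kept there were 2368 for early against late, 1522 within HFD, 55 within HFD-LFD, 991 for the early diets, and 1 correlated pair in place of 7. With these rows imputed the difference of onset changes had 1.

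Slide as a random block gave 1640 for early against late, 278 within HFD, 6 within HFD-LFD and 251 for the early diets. Slide as a fixed block, which leaves 1 late tumor (MSU_45) against 3 HFD-LFD Early tumors on the only slide with both onsets, gave 71 for early against late, 17 within HFD-LFD, 104 for adult diet, 66 for pubertal diet, 7 for HFD Late against LFD Late and 1 for continuous diet. Session as a fixed block gave 5383 for early against late, 335 within HFD-LFD, 74 for the early diets and 1 for adult diet. Array weights gave 7580 for early against late, 9084 within HFD, 2459 within HFD-LFD, 7959 for the early diets, 735 for the difference of onset changes, 2475 for HFD Late against LFD Late, 570 for pubertal diet, 20 for adult diet and 3 for continuous diet. Without the 7 arrays of the 2 dimmed slides there were 445 within HFD-LFD, 33 for adult diet and 56 for HFD Late against LFD Late, and within the first session, with fewer tumors, 1535 for early against late.

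Leaving out 1 tumor gave 1963 (without MSU_768) to 4406 (without MSU_137) for early against late. Within HFD it gave 950 (without MSU_768) to 3580 (without MSU_96), with 1282 without MSU_163 and 1207 without MSU_97. Within HFD-LFD it gave 10 (without MSU_54) to 283 (without MSU_96), with 15, 53 and 34 without MSU_51, MSU_62b and MSU_58, and 106, 261 and 264 without MSU_67, MSU_86 and MSU_28. For the early diets it gave 503 (without MSU_54) to 2619 (without MSU_86), and 784 to 1201 without any other early tumor. It gave 0 to 17 (without MSU_97) for the difference of onset changes, 0 to 22 (without MSU_28) for HFD Late against LFD Late, 0 to 18 (without MSU_26) for pubertal diet, 0 to 1 for continuous diet and 0 in each case for adult diet. Where it left a group of 2, the spread was pooled over groups.

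Over the settings other than leaving out a tumor, the early minus late difference ran from -6.30 to -3.45 in Fcgbp. That range leaves out settings with its other probe, which has bounds in 3 early tumors, and the mean of its probes gave -2.84. The difference ran from -1.70 to -0.61 in Muc1 and from -3.29 to -1.43 in Muc20 (its other probe, mostly below background, left out). It ran from -1.15 to -0.08 in Muc15, -1.08 to 0.74 in Pigr and -0.57 to 0.79 in Muc4. The value of -6.30 and the change of sign in Pigr are those of slide as a fixed block, against that 1 late tumor, and Muc4 kept its sign in 15 of 19 settings. Past the threshold in early against late, Fcgbp lost it with slide as a fixed block and within the first session, Muc1 with these, with dimmed rows kept and in the tumor channel alone, and Muc20 with slide as a fixed block, within the first session, with dimmed rows kept and on its other probe. Muc15 gained it with array weights (-0.85) and Pigr with off-chromosome probes kept (-0.58), which reads Pigr on the G and A probe. This contrast chose the 6 genes, so nothing is read from these losses and gains. Of differences of the 6 genes under all these settings, 25 moved by more than the residual SD, and 8 correlated pairs, counted over both alternatives, lost the threshold. With 1 tumor left out, 0 differences moved so far. Off-chromosome probes kept and the other probes were alternatives chosen after seeing the data. No paired analysis was possible because the labels pair no tumors across groups beyond the shared numbers in the names MSU_62a and MSU_62b, and MSU_59a and MSU_59b, which join different pairs of groups. Depth is signal over background here: the second Muc20 probe and spots of MSU_86 for Pigr, Muc1 and Muc4 give bounds.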

Other observations

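Low Fcgbp in late tumors did not go with one pattern of the other genes. MSU_96 had Fcgbp at -3.51 with Muc15 at 0.78 and Muc20 at -0.12, the lowest and second-lowest late levels of those mucins. MSU_28 had Fcgbp at -2.85 with Muc20 at 1.54, and MSU_137 had Fcgbp at -2.08 with Muc4 at 5.19, Pigr at 3.13 and Muc20 at 2.50. MSU_86, with the highest squamous level of all tumors (2.42), had Fcgbp at -0.62.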
